A study of Mus musculus with 4 samples.

Results

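The lysophospholipid receptors described here are 8 genes, the lysophosphatidic acid receptors Lpar1, Lpar2, Lpar3, Lpar4 and Lpar6 and the sphingosine-1-phosphate receptors S1pr1, S1pr2 and S1pr3, out of 21367 genes named on the arrays. They were chosen by family, with the levels measured on these same arrays already known, so the values below describe the members and carry no test. Each member was read through its RefSeq accession, which gave 9 spots per array: 7 genes had 1 spot and Lpar2 had 2. The brightest spot of a gene was well above background on all 4 arrays for 7 of the 8 genes, and Lpar3 fell short of that in WT cells.

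Lysophosphatidic acid (LPA) and sphingosine-1-phosphate (S1P) are small lipids of serum and platelets that act on G protein-coupled receptors of the cell surface. LPA is made outside the cell mainly by the secreted enzyme autotaxin, whereas S1P is made inside by sphingosine kinases and then exported. In vascular smooth muscle the receptors act through Gi, Gq and G12/13 proteins on calcium, cytoskeletal and growth signalling, and are known for effects on contraction, migration and proliferation. In blood S1P travels largely on apolipoprotein M of high-density lipoprotein, and LPA is also found in oxidised LDL.

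The 4 groups were L2AKO cells with LDL, L2AKO cells without LDL (control), WT cells with LDL and WT cells without LDL (control), all cultured smooth muscle cells of C57BL/6J mouse aorta at passages 12 to 16, isolated from 5 aortas. L2AKO cells lack LAMP-2A, the splice form of Lamp2 that takes up proteins in chaperone-mediated autophagy. All cells spent 24 h in medium with 5% lipoprotein-deficient serum, and LDL was given at 150 µg/ml cholesterol with 0.1 U/ml bovine lipoprotein lipase. The labels do not say whether control cells received the lipase. RNA was pooled in triplicate and each group had 1 one-colour Agilent array, so the spread between cultures is unknown and the groups are compared without a test.

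The 75th percentile of the background-subtracted signal ranged between 318.8 and 433.8 over the arrays, and 47.2% to 52.0% of features were well above background. The array of L2AKO cells with LDL lay on another slide than the other 3, so slide and group cannot be told apart in comparisons that use it. On that array 7 of 8 spike-in controls, scaled like the genes, fell outside the range of the other arrays. The same count was not made for the other arrays, so it does not show an effect of the slide. Of the 2 Lamp2 features, the dimmer had log2 values of 2.41 in L2AKO with LDL, 2.30 in L2AKO control, 3.74 in WT with LDL and 3.68 in WT control. The brighter one read 6.09, 6.33, 6.38 and 6.29 in the same order, and the sources used here do not say which of them lies in the deleted part. Contractile smooth muscle markers were above background for 6 of 10 genes on every array, while Myh11, Lmod1, Des and Myocd were below it on all 4. With 1 line per genotype, a genotype difference below is a difference between these lines, and in pooled RNA fewer cells of a type cannot be told from less RNA per cell.

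Levels are log2 signals relative to the 75th percentile of the same array, at which the value is 0, and a difference is that of 2 arrays on this scale. The error given with a value is the scanner software's own estimate for the spot, carried through to the difference. It covers the reading of 1 spot and not the spread between cultures. Because spots of different sequence bind differently, levels were compared between arrays for 1 gene and not between genes. The summed signals of marker lists below are an exception, since they add different spots and the brightest weigh most. The brightest adventitial fibroblast marker in WT control was Dcn (8.60), and the brightest macrophage marker in L2AKO with LDL was Itgam (5.46). Such sums do not measure the amount of a cell type.

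**Figure D1:**
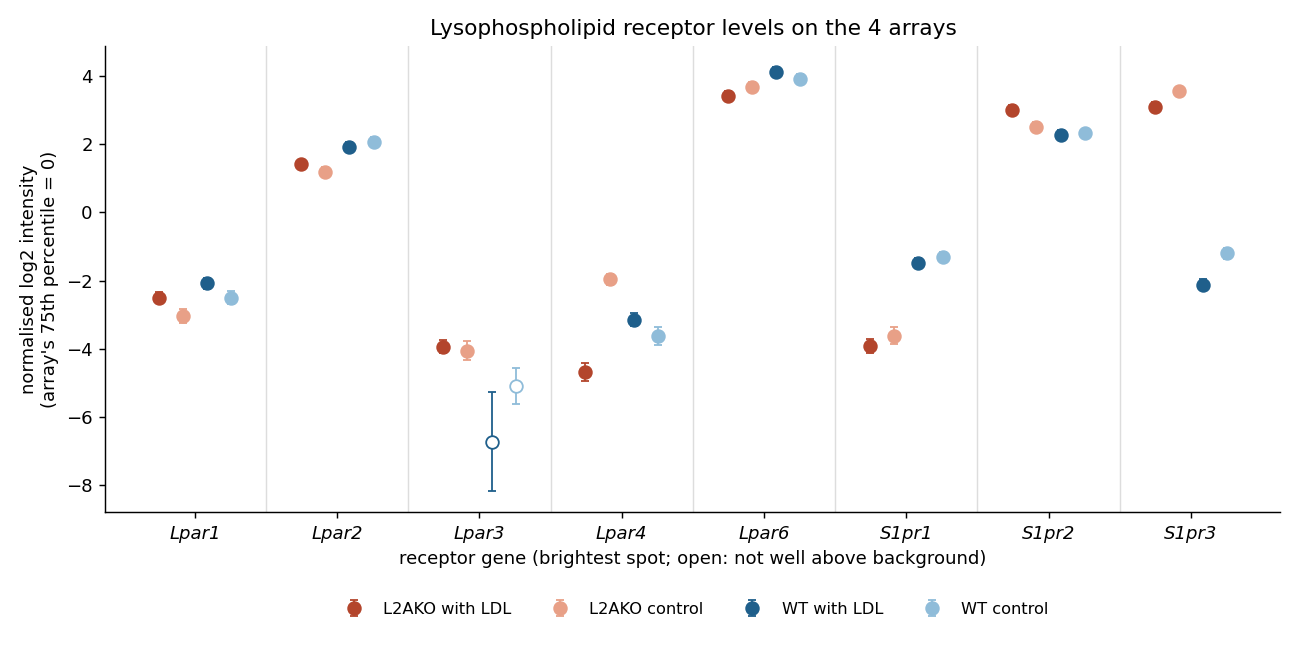
Normalised log2 intensity (y axis, 0 is the array's 75th percentile) of the brightest spot of each receptor gene (x axis) on the 4 arrays, with the scanner software's error as bars. S1pr3 sat at 3.1 and 3.55 in L2AKO cells and at -2.12 and -1.20 in WT cells, and the open points of Lpar3 in WT cells were not well above background. Heights cannot be compared between genes.

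The genotypes were compared first, to ask which receptors differed in cells that lack LAMP-2A. S1pr3 was far higher in L2AKO cells, S1pr1 was several-fold lower, and the other receptors measured with and without LDL kept within 2-fold except Lpar4. Without LDL, 2 of the 7 measured receptors were at least 2-fold higher in L2AKO (7.56% of 12586 genes measured) and 1 was at least 2-fold lower (8.21% of these genes). With LDL, 1 of 7 was at least 2-fold higher (8.29% of 12931 genes) and 2 were at least 2-fold lower (10.4%). The median receptor difference was -0.23 without LDL, beside -0.01 for all genes, and -0.53 with LDL, beside -0.05. Since the members were chosen with these contrasts in view, nothing is read from those shares.

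S1pr3 codes for a receptor that couples to Gi, Gq and G12/13 and mediates S1P-driven contraction in several vascular beds. Its spot had a background-subtracted signal of 3719 in L2AKO with LDL and 4572 in L2AKO control, against 85.2 in WT with LDL and 138.4 in WT control. As normalised log2 levels these were 3.1, 3.55, -2.12 and -1.20 in that order. Both L2AKO arrays lay above both WT arrays. Here and for the receptors below, the share of all genes ordered in this way was not counted, and nothing is read from the order. S1pr3 was 27.0-fold higher in L2AKO than in WT without LDL, a log2 difference of 4.76 ± 0.21. It was 37.3-fold higher with LDL, at 5.22 ± 0.21 across slides. Without LDL, 10 of 12586 genes had a difference as high as that of S1pr3 or higher, itself included, and with LDL 5 of 12931 did.

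The sequence upstream of S1pr3 is shown because this gene had the largest difference among the receptors. It is the window of 250 bases before the annotated start in RefSeq (GRCm38.p6), chr13:51408368-51408617 on the plus strand, in which capitals mark a GC box, GGGCGG, beginning 20 bases before the start. Both strands were searched for the letters of the GC box, of a TATA box (TATAAA) and of the sites of TEAD factors (GGAATG) and AP-1 (TGANTCA). The cAMP element was searched as TGACGTCA, the sterol element as TCACNCCAC and the CArG box of serum response factor by name.
S1pr3: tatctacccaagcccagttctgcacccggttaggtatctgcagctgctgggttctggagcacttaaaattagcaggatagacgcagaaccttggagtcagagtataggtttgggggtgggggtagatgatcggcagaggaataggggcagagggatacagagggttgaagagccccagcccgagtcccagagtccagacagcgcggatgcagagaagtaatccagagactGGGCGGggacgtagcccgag
Of 32851 RefSeq promoter windows of this length, 32.7% hold the GC box letters, so the match is common and describes the window only. None of the other motifs searched occurred in it. CpG dinucleotides were at 0.482 of the number expected from base composition, beside a median of 0.374 over all windows, and 56.4% of the bases were G or C. RefSeq entries matched 7 of the 8 receptor genes, and S1pr1 was not matched.

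S1pr1 encodes the receptor that couples to Gi alone and is known best in endothelium and lymphocytes. Its background-subtracted signal was 28.8 in L2AKO with LDL and 31.8 in L2AKO control, against 133.4 in WT with LDL and 129.0 in WT control. The normalised log2 levels were -3.91, -3.61, -1.47 and -1.31 in that order, with both L2AKO arrays below both WT arrays. S1pr1 was 4.95-fold lower in L2AKO without LDL (-2.31 ± 0.28) and 5.42-fold lower with LDL (-2.44 ± 0.25). Its L2AKO spots were dim, and with the normexp background correction, which lifts dim spots, the differences were -1.22 and -1.23. Endothelial markers were above background for 4 of 10 genes on each L2AKO array and for 3 of 10 on each WT array. Their summed signal, in units of the array's 75th percentile, was 11.3 and 11.2 on the L2AKO arrays with and without LDL, against 7.03 and 9.22 on the WT arrays. Kdr, Egfl7 and Vwf were above background on all 4 arrays and Pecam1 on both L2AKO arrays, while Cdh5, Tek, Tie1, Erg, Emcn and Cldn5 were below it on every array. The part of such cells in the S1pr1 difference was not tested.

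S1pr2, which couples to G12/13 among others, was bright on every array, with signals of 3472 in L2AKO with LDL, 2232 in L2AKO control, 1803 in WT with LDL and 1591 in WT control. Both L2AKO arrays were the higher ones also after scaling, with log2 levels of 3.00 and 2.52 against 2.28 and 2.32. The differences stayed under 2-fold, at 0.20 ± 0.20 without LDL and 0.72 ± 0.20 with LDL. Among the S1P receptors the L2AKO cells had more S1pr3 signal and less S1pr1 signal than WT cells under either medium. S1pr2 was higher by under 2-fold with LDL, across slides. Without LDL its difference was no larger than its scanner error.

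**Figure D2:**
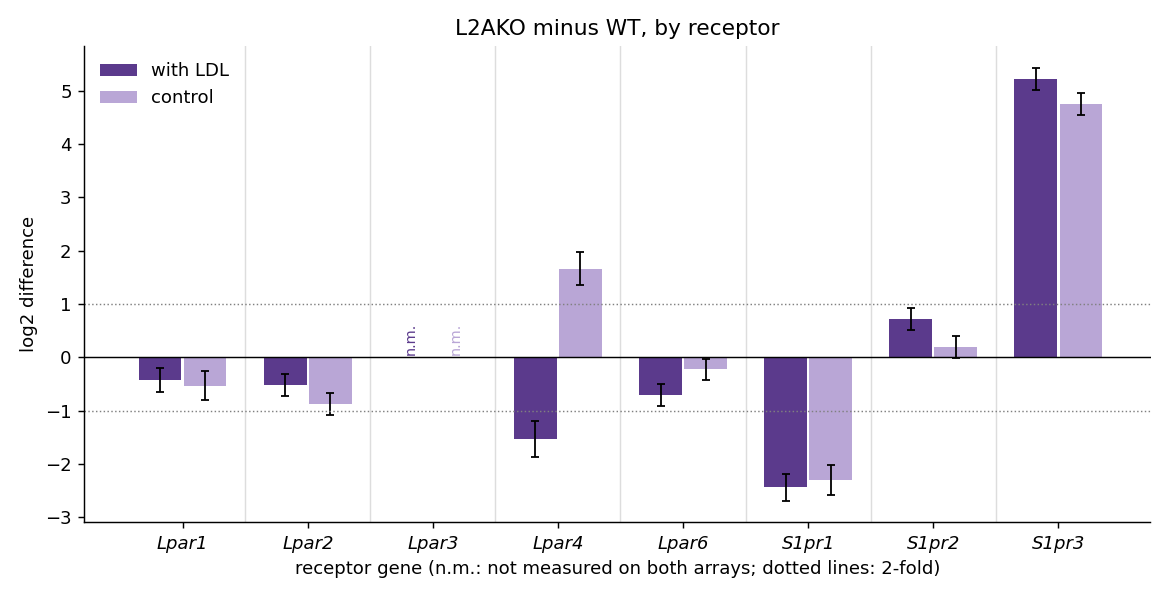
Log2 difference of L2AKO minus WT (y axis) for each receptor (x axis), with LDL (dark bars) and without (light bars), and the propagated scanner error. S1pr3 stood at 5.22 and 4.76 and S1pr1 at -2.44 and -2.31, while Lpar4 lay at -1.53 with LDL and 1.66 without. Lpar3 was not measured on both arrays of either pair.

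Of 6 measured contractile smooth muscle markers, 2 were at least 2-fold higher in L2AKO and 1 was lower, without and with LDL. Tagln (1.27 without LDL and 1.46 with LDL) and Cnn1 (1.11 and 1.04) were higher, and Actg2 (-1.73 and -1.72) was lower. The summed signal of this list was 152.6 and 159.5 in L2AKO with and without LDL against 189.0 and 213.2 in WT. Markers of other cell types differed between the lines as well. Of 9 measured adventitial fibroblast markers, 4 were at least 2-fold higher in L2AKO without LDL and 2 were lower, and with LDL 4 were higher and 3 lower. The higher ones were Col3a1 (6.15 without LDL and 8.43 with LDL), Serpinf1 (4.28 and 4.49), Pi16 (4.14 and 4.85) and Ly6a (1.04 and 1.03). The lower ones were Dcn (-1.69 and -1.97), Lum (-1.03 and -1.01) and, with LDL, Pdgfra (-0.61 and -1.14). This list had 10 and 9 of 10 genes above background in L2AKO with and without LDL and 9 of 10 on each WT array, and its summed signal was 507.1 and 500.4 in L2AKO against 447.2 and 519.3 in WT. Among macrophage markers, Trem2 (3.39 and 2.49) and Cd68 (1.85 and 1.79) were higher in L2AKO and none was lower by 2-fold. Of the 10 macrophage genes, 6 and 6 were above background in L2AKO with and without LDL against 6 and 5 in WT, with sums of 51.7 and 35.6 against 32.8 and 37.9, and Adgre1, Mrc1, Fcgr1 and Ptprc were below background on every array. Of 6 measured mesothelial and epithelial markers, 2 were higher in L2AKO, Lrrn4 (3.40 and 4.31) and Upk3b (1.17 and 1.8), and 3 were lower, Cdh1 (-3.14 and -3.24), Msln (-2.31 and -2.15) and Krt18 (-1.90 and -1.76). Their sum was 11.1 and 10.2 in L2AKO with and without LDL against 30.2 and 34.3 in WT, and 7 and 6 of 8 genes were above background in L2AKO against 6 and 7 in WT. The part of these cells in the receptor differences was not tested.

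The LPA receptors of the same family as the S1P receptors are Lpar1, Lpar2 and Lpar3. Lpar2, which couples to Gi, Gq and G12/13, had signals of 1153 in L2AKO with LDL and 891.1 in L2AKO control, against 1418 in WT with LDL and 1340 in WT control. Its log2 levels were 1.41 and 1.19 against 1.94 and 2.07, lower on both L2AKO arrays than on either WT array. Lpar2 was 1.84-fold lower in L2AKO without LDL (-0.88 ± 0.20) and 1.44-fold lower with LDL (-0.53 ± 0.20). A second Lpar2 spot was dim, with signals of 17.8 in L2AKO with LDL, 18.6 in L2AKO control, 17.9 in WT with LDL and 25.8 in WT control. It was not well above background in L2AKO control, where it was at least 1.62-fold lower than in WT control, nor in WT with LDL.

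Lpar1, the most widely expressed LPA receptor, gave signals of 76.9 in L2AKO with LDL, 47.8 in L2AKO control, 87.9 in WT with LDL and 56.5 in WT control. The log2 levels were -2.50, -3.03, -2.08 and -2.50 in that order, so that L2AKO with LDL and WT control stood at the same level. Its genotype differences were -0.53 ± 0.28 without LDL and -0.42 ± 0.22 with LDL, and after normexp they were -0.22 and -0.13.

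Lpar3, a Gi- and Gq-coupled receptor, was barely detected. Its signals were 28.3 in L2AKO with LDL and 23.3 in L2AKO control, both well above background, against 3.49 in WT with LDL and 9.39 in WT control, where it was not. Because the WT readings have only a bound, Lpar3 read higher in L2AKO by at least 1.38-fold with LDL and by at least 1.12-fold without it. These bounds leave out the scanner error. Without LDL the bound was 0.17 in log2, smaller than the error of the L2AKO control spot (0.28), so it does not establish a difference. With LDL it was 0.46, beside an error of 0.19 for the L2AKO spot. The bound sets the L2AKO value against the lowest signal called well above background on the WT array, which was 17.5 with LDL and 17.0 without.

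Lpar4 and Lpar6 are LPA receptors of a second family, related to the purinergic P2Y receptors. Lpar6 was bright, with signals of 4636 in L2AKO with LDL, 5017 in L2AKO control, 6453 in WT with LDL and 4813 in WT control. Its log2 levels of 3.42 and 3.69 in L2AKO both lay below the 4.12 and 3.92 of WT. The differences were -0.23 ± 0.20 without LDL and -0.70 ± 0.20 with LDL.

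Lpar4, which couples to Gs and G12/13 among others, changed its order with the medium. Its signals were 17.0 in L2AKO with LDL, 99.6 in L2AKO control, 41.8 in WT with LDL and 25.7 in WT control, at log2 levels of -4.68, -1.97, -3.15 and -3.63. The L2AKO arrays were thus the lowest and the highest, with both WT arrays between them. Without LDL Lpar4 was 3.17-fold higher in L2AKO (1.66 ± 0.30), on arrays of 1 slide. With LDL it was 2.89-fold lower in L2AKO (-1.53 ± 0.34), across slides. With normexp they were 0.81 and -0.45, both under 2-fold, and the authors' deposited table gave 1.02 and -0.57.

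The upstream window of Lpar4 is shown because its LDL response differed most between the genotypes, and that of Lpar2 because, after S1pr1, Lpar2 had the lowest difference between L2AKO control and WT control. They lie at chrX:106920375-106920624 and chr8:69822315-69822564, both on the plus strand of GRCm38.p6. Capitals mark the motifs found. In Lpar4 these are TTTATA, the reverse complement of TATAAA, from 203 and GGGCGG from 67 bases before the start. In Lpar2 they are TGACTCA from 221 and GGGCGG from 52 bases before the start.
Lpar4: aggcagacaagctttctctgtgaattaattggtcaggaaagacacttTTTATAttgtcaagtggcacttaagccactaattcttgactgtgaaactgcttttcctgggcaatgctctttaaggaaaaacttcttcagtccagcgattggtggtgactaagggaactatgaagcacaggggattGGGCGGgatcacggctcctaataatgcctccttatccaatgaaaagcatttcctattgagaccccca
Lpar2: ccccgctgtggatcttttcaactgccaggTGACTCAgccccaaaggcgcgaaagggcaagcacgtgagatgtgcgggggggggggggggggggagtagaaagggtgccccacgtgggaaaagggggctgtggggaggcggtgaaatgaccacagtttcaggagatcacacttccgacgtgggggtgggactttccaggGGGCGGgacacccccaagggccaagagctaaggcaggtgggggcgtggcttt
Among all windows, 12.4% hold the TATAAA letters and 6.75% those of AP-1, and no marked motifs overlap. G and C made up 43.6% of the Lpar4 window and 64.4% of the Lpar2 window, beside a median of 52.4%. The S1pr2 window holds a TGACGTCA 181 bases before the start (1.55% of all windows do). The Lpar6 window holds a CATTCC, the reverse complement of GGAATG, 23 bases before the start (12.6%). The sterol element (1.05% of windows) and the CArG box (1.47%) were in none of the 9 windows of the 7 matched genes.

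**Figure D3:**
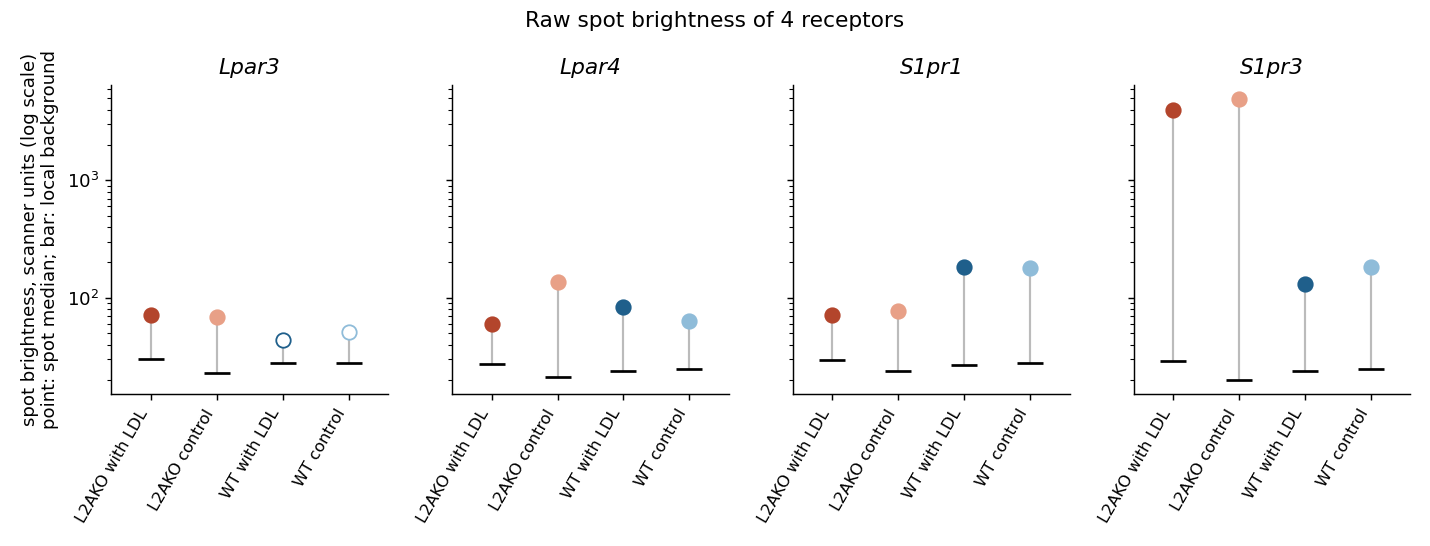
Median brightness of the spot (points) and of its local background (bars) in scanner units on a log scale (y axis) for 4 receptors on the 4 arrays (x axis). The Lpar4 spot read 59.5 over a local background of 27.5 in L2AKO with LDL and 136.0 over 21.0 in L2AKO control, and the open points of Lpar3 in WT were not well above background.

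The LDL comparisons asked how the receptors answered lipoprotein loading in each line. In WT cells none of 7 measured receptors differed by 2-fold, beside 0.239% of 12973 genes past 2-fold upward and 1.03% downward. S1pr3 came nearest, 1.89-fold lower with LDL (-0.92 ± 0.22), and 148 of these genes were as low or lower. With normexp the S1pr3 value was -0.60, and in the authors' deposited table -0.69. Lpar4 (0.48 ± 0.33) and Lpar1 (0.42 ± 0.24) were the highest. With normexp they were at 0.25 and 0.17, below Lpar6 at 0.30. Lpar6 differed by 0.21 ± 0.20, Lpar2 by -0.14 ± 0.20, S1pr1 by -0.17 ± 0.21 and S1pr2 by -0.04 ± 0.20. These 4 values were no larger than their scanner error or about equal to it.

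In L2AKO cells 1 of 8 measured receptors was at least 2-fold lower with LDL (1.33% of 13004 genes) and none at least 2-fold higher (0.930%). The receptor was Lpar4, 6.54-fold lower with LDL at -2.71 ± 0.32, a value that 12 of these genes reached. Its raw spot brightness was 59.5 with LDL over a local background of 27.5, against 136.0 over 21.0 in control. With normexp it was -1.0, and in the authors' deposited table -1.25. Lpar1 (0.53 ± 0.26) and S1pr2 (0.48 ± 0.20) were higher with LDL by under 2-fold, and S1pr3 (-0.45 ± 0.20), S1pr1 (-0.30 ± 0.31) and Lpar6 (-0.27 ± 0.20) lower. With normexp the Lpar1 value was 0.26. Lpar2 stood at 0.22 ± 0.20 and Lpar3 at 0.13 ± 0.34.

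**Figure D4:**
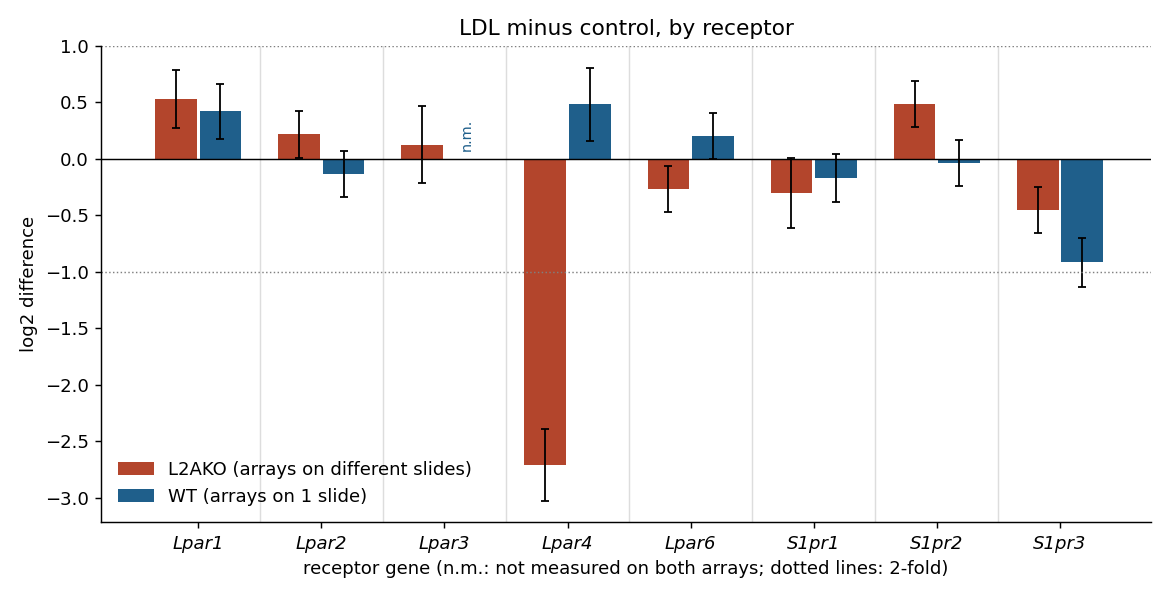
Log2 difference of LDL minus control (y axis) for each receptor (x axis) in L2AKO (left bars, arrays on different slides) and WT (right bars, arrays on 1 slide), with the propagated scanner error. Lpar4 stood at -2.71 in L2AKO and 0.48 in WT, and S1pr3 was below 0 in both lines, at -0.45 and -0.92.

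Set against each other, the LDL responses differed by at least 2-fold for 1 of 7 receptors, in the lower direction (0.721% of 12484 genes), and for none in the higher direction (1.39%). For Lpar4 the L2AKO response minus the WT response was -3.19 ± 0.45, which 3 of 12484 genes reached. With normexp it was -1.26 and in the authors' deposited table -1.59, beyond 2-fold in each. The other 6 receptors lay between -0.48 ± 0.29 for Lpar6 and 0.52 ± 0.29 for S1pr2. Every such value uses the array on the other slide.

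The genes whose 4 levels ran most like those of a receptor were found by the root mean square distance between profiles centred on their mean, over the 12484 genes above background on all 4 arrays. This was done for the 3 receptors that ranged over at least 1 log2 unit. Among those closest to S1pr1 were Irx2 and Pmaip1, at distances of 0.032 and 0.034 log2 units, beside a range of 2.61 for S1pr1 itself. For S1pr3 they were Mirg, Rnf144a and Pi16, at 0.26, 0.28 and 0.30 beside a range of 5.67. The nearest to Lpar4 lay farther off: Zfp449, Rhox2e and 9130019O22Rik were at 0.45, 0.49 and 0.51 beside a range of 2.71. With 4 arrays, such likeness describes these points only.

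The genes around the receptors were taken as lists of enzymes, transporters, G proteins, regulators and downstream genes, and counted at 2-fold between L2AKO and WT without LDL, where 7.56% of all measured genes were higher and 8.21% lower, with a median of -0.01. Of the measured LPA enzymes 1 of 12 was higher and 2 were lower, with a median of -0.38. Autotaxin, Enpp2, was at 0.34 in L2AKO control against 1.75 in WT control (-1.42), but differed by only -0.62 with LDL. The phospholipase A2 gene Pla2g4a was lower without and with LDL (-1.16 and -1.50). The phospholipase Pla1a, which can form LPA, was at 1.24 without LDL and 0.10 with it. Among the lipid phosphate phosphatases, which break down both lipids at the cell surface, Plpp1 was at -0.99 without LDL and -1.08 with LDL, Plpp2 at -0.90 and -0.94, and Plpp3 at 0.72 and 0.81.

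On the S1P side 1 of 11 measured genes was at least 2-fold higher in L2AKO without LDL and 2 were lower, with a median of -0.04. Spns2, an exporter of S1P, was at -3.08 in L2AKO control against -0.27 in WT control, a difference of -2.81 without LDL and -1.94 with LDL. The other transporters on the list stayed within 2-fold: Mfsd2b (-0.04 without LDL and 0.75 with LDL), Abcc1 (0.23 and 0.21) and Spns1 (-0.36 and -0.62). Acer3, an alkaline ceramidase, was lower (-1.79 and -2.20), and Sgpp1, the intracellular S1P phosphatase, was higher (1.55 and 1.58). The S1P lyase Sgpl1 differed by 0.44 both times. Sphingosine kinase 1, Sphk1, was at -0.44 without LDL and reached -1.12 with LDL, across slides.

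Among G proteins, small GTPases, exchange factors and kinases 3 of 20 measured genes were higher and 2 lower, with a median of -0.07. The 2 lower ones were the Gi subunit Gnai1, at -3.73 in L2AKO control against 0.31 in WT control (-4.04, and -4.58 with LDL), and the phospholipase C gene Plcb1 (-3.23, and -3.28 with LDL). In L2AKO control, Gnai1 and Plcb1 (-3.94) lay near the lowest level called well above background there, -4.33. Gnai2 and Gnai3, the other Gi subunits, were at -0.13 and -0.06. The kinases Rock2 (1.51) and Rock1 (1.02) and the small GTPase Rhob (1.17) were the higher ones. With LDL, Rock2 (1.73) was past 2-fold, whereas Rhob was at 0.98 and Rock1 at 0.18. Without LDL, a second feature of Rock2 read 1.49 and one of Rhob 1.09, but one of Rock1 only 0.28. The second Plcb1 feature was not above background on both arrays, and neither was the second feature of Rgs2, a regulator described next.

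Regulators that end receptor signalling were lower in L2AKO for 5 of 10 measured genes and higher for none, with a median of -0.95, beside 8.21% lower, 7.56% higher and a median of -0.01 over all genes. These were Rgs4 (-4.58), Rgs5 (-2.72) and Rgs2 (-1.19), which speed up the switching off of G proteins, the arrestin Arrb1 (-1.95) and the receptor kinase Grk5 (-1.01). With LDL the same 5 stood at -5.70, -2.80, -1.36, -1.69 and -1.77. A second Rgs4 feature read -4.05. Rgs5 is also on the pericyte list, of which 5 of 7 genes were above background on every array, with sums of 31.9 and 37.7 in L2AKO with and without LDL against 29.1 and 31.2 in WT. Of the 5 measured, Rgs5 and Cspg4 (-2.75 without LDL and -2.05 with LDL) were at least 2-fold lower in L2AKO and none was higher. Kcnj8 and Abcc9 were below background on every array. The part of pericytes in the difference was not tested.

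Serum response factor and YAP can be activated by the receptors. The genes listed here as their targets, which may have other inducers as well, went both ways. Of these, 4 of 15 were higher and 4 lower with a median of 0.06, beside 7.56% higher, 8.21% lower and a median of -0.01 over all genes. The cyclooxygenase Ptgs2 (-3.02), Thbs1 (-2.05), Ccn1 (-1.63) and Hbegf (-1.39) were lower in L2AKO, while Il6 (1.32), Fos (1.26), Egr1 (1.26) and Ankrd1 (1.22) were higher. With LDL, Ptgs2 (-3.52), Thbs1 (-2.51), Ccn1 (-1.75) and Hbegf (-1.70) were past 2-fold again, whereas the 4 higher genes lay between 0.25 and 0.97. Amotl2, a YAP target, was the 1 gene of this list at least 2-fold higher with LDL (1.03), beside 0.88 without it. None of the measured genes on the 6 lists differed by 2-fold with LDL in WT. In L2AKO, Rgs4 (-1.51) and Il6 (-1.89) were lower with LDL. The L2AKO response minus the WT response was past 2-fold for Pla1a (-1.14), Rgs4 (-1.12) and Il6 (-1.06), all across slides.

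**Figure D5:**
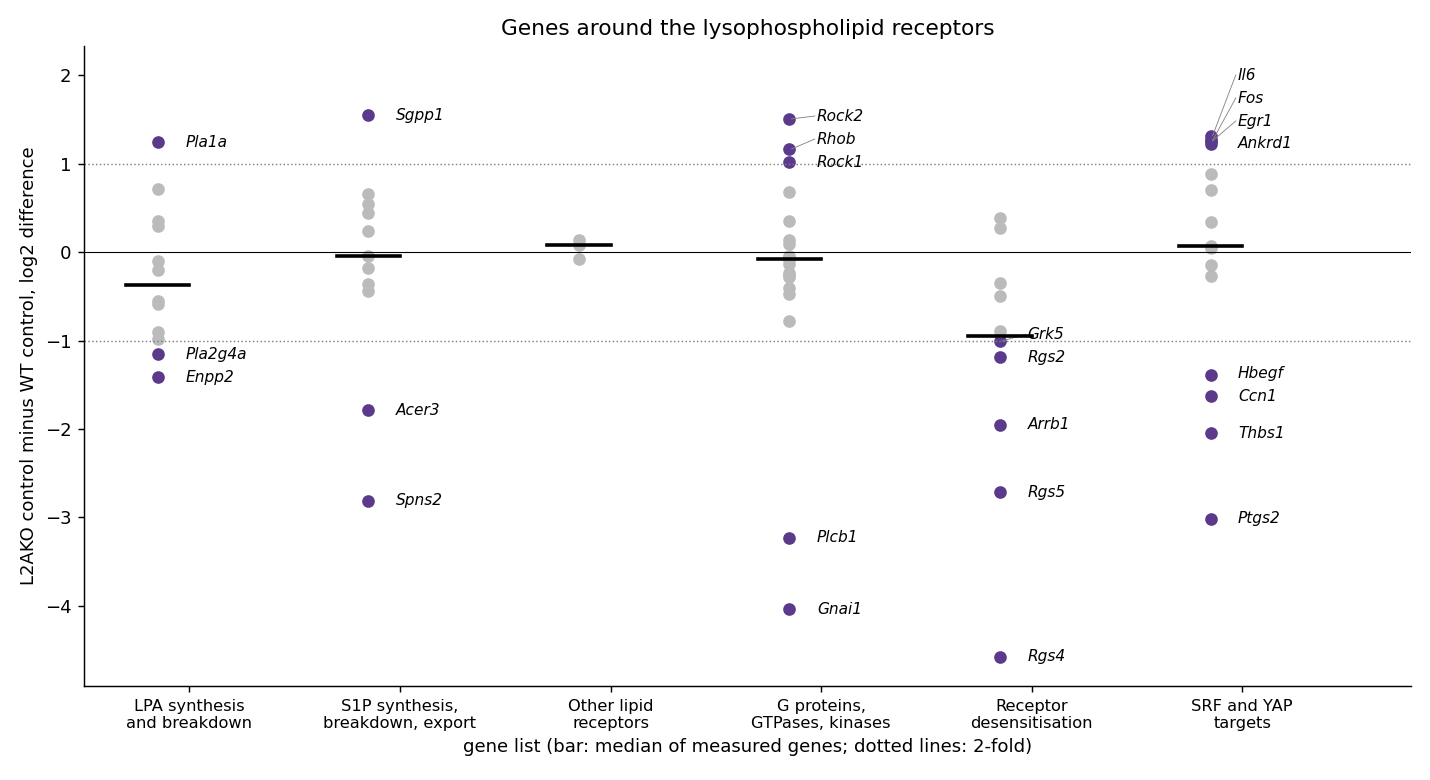
Log2 difference of L2AKO control minus WT control (y axis) for the measured genes of 6 lists (x axis), with the median of each list as a bar and genes past 2-fold named. Regulators that end signalling had the lowest median (-0.95), with Rgs4 at -4.58, and only 3 of the other lipid receptors could be measured, all within 2-fold.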

How the data were processed

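The deposited scanner files held the processed intensity of each spot, which the authors' scanner software (per the file headers, Feature Extraction 10.7.3.1 of Agilent) had background-subtracted. They also held flags, the spot and local background brightness and an error per spot. A second deposited table gives intensity on a linear scale, with column medians of 57.4 to 57.6 and 1 shared maximum, 274706.75. How it was scaled is unknown, and RMA and oligo are named in the submitters' processing notes. Control and outlier spots were left out, spots of a feature were averaged as log2 values, and the 75th percentile of each array was subtracted. Of 55679 features, 28330 were named through RefSeq accessions (GRCm38.p6, while the files name mm9). A gene was its brightest feature. Within an array, spots repeated for 1 feature had a median SD of at most 0.054 log2 units, and 0.14 under a signal of 100. Genes were counted at 2-fold where well above background on every array compared. The members, lists and rules were chosen with earlier results of these data known. The text names all receptors, up to 3 genes per list, direction and comparison past 2-fold, list genes above background on 1 side and the 3 nearest profiles, of which 1 is not reported here; further list and marker genes were named after their values were seen. Of 7 probed lymphocyte markers 2 were above background on each array, and neither differed by 2-fold between the lines. The counting was tested on simulated data. Alternatives were median, quantile and other percentile scaling, normexp (limma 3.58.1 in R 4.3.3), no filter and the second deposited table. Other steps ran in Python 3.11.15.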

Additional observations from a re-analysis of the deposited data

Results flagged for a closer look

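LDL and control differed in opposite directions in L2AKO and WT for 4 of the 7 receptors above background on all 4 arrays. The same share was not counted over all genes, whose median absolute LDL difference was 0.13 in WT and 0.19 in L2AKO. Nothing is read from the count. With 1 array a group, none of these contrasts between the lines was tested. Lpar4 was at -2.71 in L2AKO and 0.48 in WT (difference -3.19), and its genotype difference likewise was -1.53 with LDL and 1.66 without (difference -3.19). Lpar6 was at -0.27 and 0.21 (difference -0.48), S1pr2 at 0.48 and -0.04 (0.52), and Lpar2 at 0.22 and -0.14 (0.35). The L2AKO array with LDL was on the other slide each time. For S1pr2 and Lpar2 the opposite signs rest on values within the scanner error, -0.04 ± 0.20 and -0.14 ± 0.20 in WT. For Lpar6 the WT value was about equal to its error (0.21 ± 0.20). Its L2AKO value lay between -0.17 and -0.15 over the alternatives, within an error of 0.20. S1pr2 in WT was 0.026 and 0.0041 under other scalings, and Lpar2 in L2AKO was -0.0033 as a mean over its features.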

How the results depend on the processing

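The counts of receptors past 2-fold were within 1.5 times of those given for 38 of 40 combinations of comparison and alternative. That margin lets a count of 3 become 2 or 4, and the mean over features could change Lpar2 only. The genotype count fell from 3 to 2 with normexp, without and with LDL. It also fell to 2 in the authors' deposited table with LDL, and it rose to 4 with no filter in both media. With no filter on dim spots, Lpar3 added 1 receptor past 2-fold in WT with LDL, in place of 0, and raised the difference of responses to 2 receptors. Of 185 receptor differences recomputed, 160 moved by less than the scanner error and 25 by more, and no difference past 2-fold changed sign. The S1pr3 difference between genotypes lay between 4.33 and 4.85 without LDL and between 4.56 and 5.42 with LDL over the alternatives. For S1pr1 the ranges were -2.29 to -1.22 and -2.37 to -1.23. Median scaling moved the median of all genes by 0.20 between the genotypes with LDL and by 0.11 between LDL and control in L2AKO. No paired analysis was possible because each group had 1 array. Readings near background limit Lpar3, Lpar4 and, in L2AKO, S1pr1, and Lpar1 was dim on all 4 arrays. On the lists, large differences rest on dim L2AKO readings too. Without and with LDL these were -3.73 and -4.19 for Gnai1, -3.94 and -4.08 for Plcb1, -3.07 and -4.58 for Rgs4, and -3.08 and -2.13 for Spns2. The lowest levels called well above background were -4.33 and -5.08 on these arrays. List genes were not recomputed with normexp, and their differences are given without an error.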

Other observations

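Of 14 other lysophospholipid and related lipid receptors, 3 were above background on all 4 arrays (Cnr2, Gpr3 and Gpr6), and 4 on 1 array only. P2ry10, a receptor for lysophosphatidylserine, read -2.63 in L2AKO control and was at least 3.04-fold higher there than in WT control. In L2AKO cells it was at least 5.45-fold lower with LDL than in control. Lpar5, another LPA receptor, was above background in WT with LDL only (-3.87). It was at least 2.30-fold lower in L2AKO with LDL than in WT with LDL, and at least 1.28-fold higher in WT with LDL than in WT control. S1pr5 (-3.82) and the cannabinoid receptor Cnr1 (-4.24) were above background in L2AKO with LDL only, with bounds of 1.50-fold and 1.12-fold over WT with LDL. Among the regulators, Rgs16 was not above background in L2AKO with LDL and was at least 5.16-fold lower there than in WT with LDL. The S1P carrier gene Apom was above background with LDL only, in both lines. It exceeded control by at least 1.27-fold in WT. In L2AKO it read 1.49-fold over control, where its reading (-4.30) lay just over the lowest level called well above background (-4.33). Mylk, the myosin light chain kinase, was above background in WT control only (-3.81). It was at least 1.43-fold lower in L2AKO control. In WT with LDL it read 1.44-fold lower, at -4.33, not well above background though over the lowest level so called there (-4.40). The bounds given here leave out the scanner error.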
